A study of Homo sapiens with 4 samples.

Results

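Integrins, the matrix proteins they bind and the enzymes and inhibitors that remodel this matrix were examined in PLC8024, a cell line from human hepatocellular carcinoma. A list of 54 genes was used: 15 integrin subunits, 24 collagen, laminin and adhesive glycoprotein genes that encode integrin ligands, and 15 further genes for proteoglycans, basement membrane linkers, crosslinking enzymes, metalloproteinases and their inhibitors. Probe sets assigned to a single gene were found for 52 of the 54 genes, among 19775 genes with such a probe set on the array. LAMA3 was not analysed here, and ITGB6 was named only by probe sets shared with LINC02478, which had RMA values of at most 4.37 in CD133+ and 4.16 in CD133-.

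The CD133+ and the CD133- population were obtained by flow cytometry from the same line, with no treatment named, by sorting on the surface protein CD133, which has been used to enrich tumour-initiating cells. Each population was represented by 1 array, given both as RMA values, which are log2 expression values, and as MAS5 values, which are linear intensities. No replicate sort, culture or array was available, so no difference below carries a replicate error and no test was possible. PROM1, which encodes CD133, had RMA levels of 10.35 in CD133+ against 6.04 in CD133- cells, in the direction of the labels.

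Integrins are surface receptors built of an alpha and a beta subunit, and the pairing sets whether a receptor binds collagens, laminins or proteins with an arginine-glycine-aspartate (RGD) sequence such as fibronectin and osteopontin. Epithelial cells rest on a basement membrane of laminin and type IV collagen networks that nidogen, perlecan and agrin link together. Metalloproteinases cut the matrix, TIMP proteins inhibit them, and lysyl oxidases crosslink collagen. In liver, interstitial collagens and small proteoglycans are made mainly by stellate cells and fibroblasts, while tumour cells can make laminins, fibronectin and osteopontin themselves.

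Of the 52 genes, 37 were above the expression floor, that is, the larger of the 2 RMA levels was at or over the median of all probe sets in its population (5.16 in CD133+ and 5.14 in CD133-). The largest RMA differences among them lay in TIMP1, which was 7.61-fold higher in CD133+ cells, and in SPP1 and COL4A5, which were 6.32-fold and 3.86-fold lower. No integrin subunit reached 2-fold in both processings at the probe set that stood for it, though a second ITGA6 probe set did. Here a gene counts as higher or lower if it passes the floor and if both processings put it beyond 2-fold with the same sign. By this rule 1 of the 37 genes was higher and 2 were lower, where 2.25% of the 13116 genes above the floor on the whole array were higher, 1.09% were lower and 3.34% were counted in either direction. With only 3 genes counted, no excess over the array as a whole can be read from these shares.

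At 1.5-fold in both processings, 6 of the 37 genes were higher and 4 were lower, against 5.32% and 4.17% of all genes above the floor. The 6 were TIMP1, TIMP2, NID1, HSPG2, LOX and COL5A2, and the 4 were SPP1, COL4A5, ITGA6 and TIMP3. The members were chosen with earlier results of these data known, so no excess over the array can be read from these shares either. The median RMA difference, CD133+ minus CD133-, was 0.09 over the 37 genes and 0.00 over all genes above the floor. Where a gene had several probe sets, their RMA differences gave a measure of technical spread: over 6170 genes on the array the SD of the gap between the leading 2 probe sets was 0.35 in RMA and 0.79 in MAS5. This spread leaves out any variation between sorts or cultures.

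**Figure D1:**
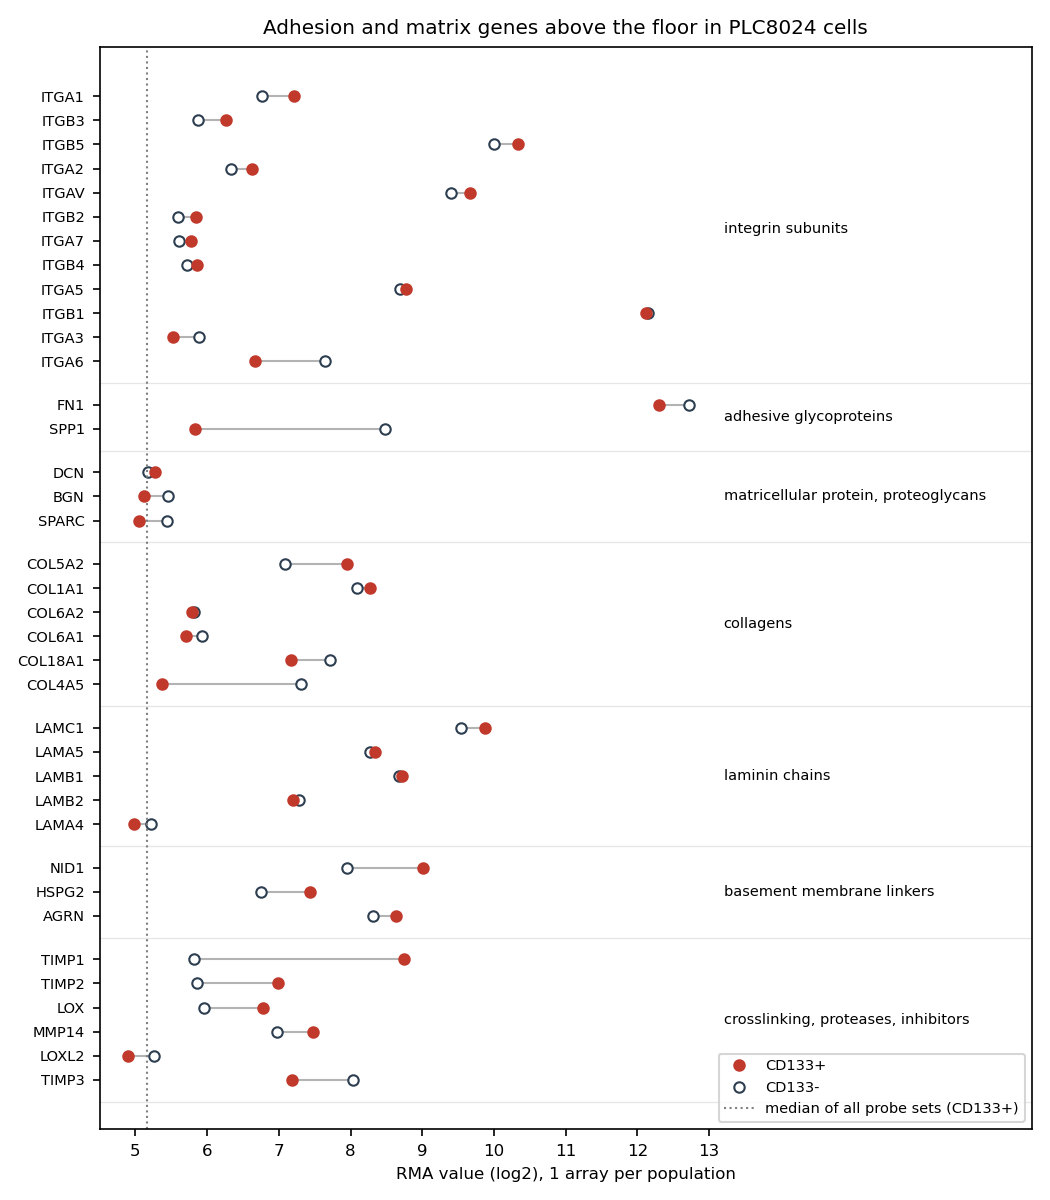
RMA values (log2, horizontal axis) of the 37 genes above the floor, grouped by role, with filled circles for the CD133+ array and open circles for the CD133- array. The dotted line is the CD133+ floor of 5.16; the widest gaps are those of TIMP1 (8.74 in CD133+ and 5.81 in CD133-), SPP1 (5.83 and 8.49) and COL4A5 (5.36 and 7.31).

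Among the integrin subunits, 12 of the 14 with a probe set were above the floor, 9 of the 12 had an RMA difference above 0, and their median was 0.21. Over all genes above the floor 48.2% had a difference above 0. ITGB1, the beta subunit shared by most matrix-binding integrins, had RMA levels of 12.11 in CD133+ against 12.14 in CD133- cells, and its other 2 probe sets above the floor had differences of -0.32 and -0.34. The common beta chain thus differed by less than the spread between probe sets.

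ITGA6, the alpha subunit of the laminin-binding integrins that epithelial cells use on basement membrane, had the largest RMA difference of any integrin subunit. Its RMA levels were 6.66 in CD133+ against 7.65 in CD133- cells, with MAS5 intensities of 364 and 617. The second ITGA6 probe set had RMA levels of 6.16 in CD133+ against 7.25 in CD133- cells and a MAS5 log2 ratio of -1.13, so both probe sets placed the gene about equally lower in CD133+. The second probe set was thus beyond 2-fold in both processings, while the leading one, with an RMA difference of -0.99 and a MAS5 log2 ratio of -0.76, was not, and the gene was not counted. Of the other laminin-binding subunits, ITGA3 had an RMA difference of -0.36, while ITGB4, the partner of ITGA6 in hemidesmosomes, had 0.15 and ITGA7, known mainly from muscle, had 0.16. MAS5 gave wider values for 3 of these genes, at -1.13 for ITGA3, 1.09 for ITGB4 and 1.65 for ITGA7, and the second probe sets of ITGB4 and ITGA7 had MAS5 log2 ratios of -0.86 and -0.14.

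The RGD-binding subunits ITGAV, ITGB5, ITGA5 and ITGB3 lay above 0 in RMA, from 0.08 to 0.39 at their leading probe sets. That range was within the 95th percentile of the gap between 2 probe sets of a gene, which was 0.70. ITGB1, shared by most matrix-binding integrins, was not placed in this group and lay below 0, at -0.03. ITGAV, the alpha subunit of the vitronectin and osteopontin receptors, had RMA levels of 9.66 in CD133+ against 9.40 in CD133- cells, and its partner ITGB5 had 10.33 and 9.99. All 4 ITGB5 probe sets were higher in CD133+, by 0.26 to 0.80. ITGA5, the fibronectin receptor subunit, differed by 0.08, and ITGB3, the other classical ITGAV partner, by 0.39 in RMA with a MAS5 log2 ratio of -0.04. Only 1 of the 7 ITGB3 probe sets was above the floor, with MAS5 intensities of 56.8 in CD133+ and 58.5 in CD133-. ITGB8, which pairs with ITGAV, was below the floor in both populations.

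The collagen-binding subunits ITGA1 and ITGA2 had RMA differences of 0.45 and 0.30 and MAS5 log2 ratios of 0.40 and -0.02. ITGB2, the beta chain of leukocyte integrins, was above the floor only through a probe set whose MAS5 intensities were 7.57 in CD133+ and 6.81 in CD133- cells, and its other 2 probe sets were below the floor. ITGA9, a subunit that binds osteopontin and tenascin, was below the floor.

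The adhesive glycoprotein genes SPP1 and FN1 both lay below 0, and only SPP1 was counted as lower. SPP1 encodes osteopontin, a secreted RGD protein that biliary and progenitor-like liver tumour cells can make. It had RMA levels of 5.83 in CD133+ against 8.49 in CD133- cells, and MAS5 intensities of 184 and 1821. This RMA difference of -2.66 ranked 17 among the 143 genes counted as lower. A second SPP1 probe set was below the floor, with an RMA difference of -0.58. FN1, which encodes fibronectin, had RMA levels of 12.30 in CD133+ against 12.72 in CD133- cells. The FN1 difference of -0.42 was within the 95th percentile of the gap between probe sets of a gene, which was 0.70. All 7 FN1 probe sets lay below 0, from -0.90 to -0.18, and the one at -0.90 was under the floor in CD133+.

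Type IV collagen was represented above the floor only by COL4A5, whose chain forms part of the basement membrane network of kidney, eye and ear. COL4A5 had RMA levels of 5.36 in CD133+ against 7.31 in CD133- cells, and MAS5 intensities of 188 and 759. The value in CD133+ cells was thus close to the floor. Its other probe set was below the floor. COL4A6, COL4A1 and COL4A2, which encode other type IV chains, were below the floor in both populations, at RMA values from 3.36 to 4.23 in CD133+ and from 3.22 to 4.14 in CD133-. COL18A1, the precursor of endostatin, differed by -0.54 in RMA, and its MAS5 log2 ratio was -0.62.

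COL5A2, a chain of the type V collagen that helps start collagen fibrils, had the largest RMA difference of the interstitial collagens above the floor. It had RMA levels of 7.95 in CD133+ against 7.09 in CD133- cells, with MAS5 intensities of 1097 and 617, and a second probe set at 0.38 in RMA and -0.08 in the MAS5 log2 ratio. COL1A1, a chain of the main fibrillar collagen, had 8.27 and 8.08 at its leading probe set, while its other 4 probe sets had RMA values of at most 5.33 in either population. COL6A1 and COL6A2, chains of the microfibrillar type VI collagen, had RMA differences of -0.23 and -0.02. The other 4 COL6A1 probe sets above the floor lay above 0, from 0.08 to 0.18. COL1A2, COL3A1, COL5A1, COL6A3 and COL12A1 were below the floor in both populations.

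Laminin chains differed little in RMA. LAMA5, LAMB1 and LAMC1, which can join into a laminin trimer common in epithelial basement membranes, had RMA differences of 0.06, 0.05 and 0.34, and the second LAMC1 probe set had -0.22. LAMB2 had -0.09, and LAMA4, just above the floor in CD133- only, had -0.24. LAMA1 and LAMB3 were below the floor. The 5 laminin chains above the floor thus spanned -0.24 to 0.34 in RMA, within the 95th percentile of the gap between 2 probe sets of a gene, which was 0.70. In MAS5 all 5 lay above 0, with log2 ratios from 0.09 to 0.77, so LAMB2 and LAMA4 differed in sign between the processings.

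**Figure D2:**
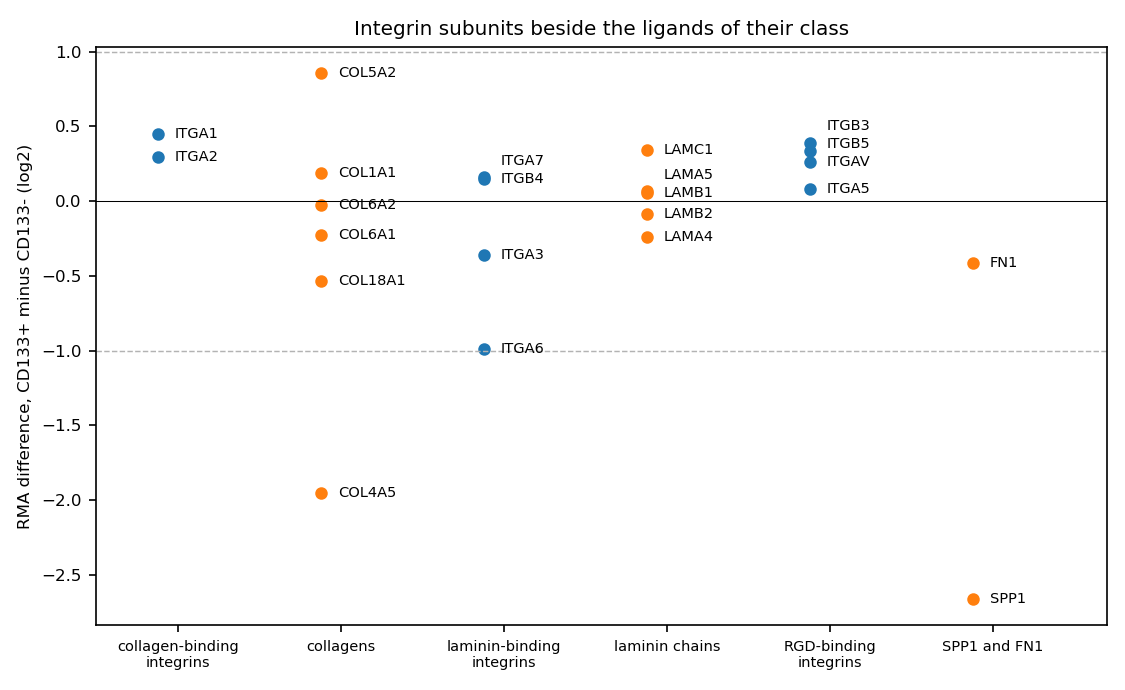
RMA difference, CD133+ minus CD133- (log2, vertical axis), of integrin subunits (blue) and of the ligands of their class (orange), for genes above the floor; dashed lines mark 2-fold. The RGD-binding subunits shown, which leave out ITGB1, lie between 0.08 and 0.39. SPP1 and FN1 lie at -2.66 and -0.42, and the laminin chains lie between -0.24 and 0.34 beside ITGA6 at -0.99.

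Receptors and ligands were compared as groups by their medians. The 12 integrin subunits above the floor had a median RMA difference of 0.21, and the 13 collagen, laminin, SPP1 and FN1 genes above the floor had -0.09, a gap of 0.29 on the log2 scale. In MAS5 the medians were 0.14 for the receptors and 0.09 for the ligands, a gap of 0.056. The ligands ranged more widely in RMA, from -2.66 to 0.86, than the receptors, which ranged from -0.99 to 0.45. The ligand range was set at its lower end by SPP1 and COL4A5, and 5 of the 13 ligands were above 0, against 9 of the 12 receptors. COL6A1 lay below 0 at its leading probe set but above 0 at its other 4 above the floor. These are descriptions of 1 array per population in each processing. The gap was as small as 0.013 with a pseudocount on the MAS5 values.

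The 3 linker genes of basement membrane networks above the floor all lay on the CD133+ side. NID1 encodes nidogen, which bridges laminin and type IV collagen. It had RMA levels of 9.01 in CD133+ against 7.96 in CD133- cells, and MAS5 intensities of 2375 and 1229. The MAS5 log2 ratio of 0.95 kept the gene from being counted. A second NID1 probe set differed by 0.82 in RMA, with a MAS5 log2 ratio of 1.05. Its dimmest probe set above the floor, at MAS5 intensities of 21.9 in CD133+ against 72.7 in CD133-, had an RMA difference of -0.27.

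HSPG2, which encodes perlecan, had RMA levels of 7.44 in CD133+ against 6.75 in CD133- cells, but MAS5 intensities of 419.8 and 57.2. The fold was 1.61 in RMA and 7.34 in MAS5, and the second probe set differed by 0.18 in RMA but by -0.68 in the MAS5 log2 ratio. The size of the HSPG2 difference was therefore not settled by these data. AGRN, which encodes agrin, had an RMA difference of 0.32, and 3 of its 4 probe sets lay above 0. NID2 was below the floor.

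Among the small proteoglycans and SPARC, a collagen-binding matricellular protein, no gene was counted. SPARC had RMA levels of 5.06 in CD133+ against 5.44 in CD133-, BGN (biglycan) had 5.12 and 5.45, and DCN (decorin) had 5.27 and 5.17, all near the floor. LUM, which encodes lumican, had the widest RMA difference of the members below the floor, with RMA levels of 4.54 in CD133+ against 2.01 in CD133- cells. Its MAS5 intensities were 132 and 14.7. The remaining LUM probe set differed by 0.15 in RMA, and no fold is given for this gene.

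The metalloproteinase inhibitors differed in opposite directions. TIMP1, a secreted metalloproteinase inhibitor that liver cells induce in inflammation and fibrosis, had RMA levels of 8.74 in CD133+ against 5.81 in CD133- cells, and MAS5 intensities of 1699.8 and 195. The difference of 2.93 ranked 19 among the 295 genes counted as higher on the array. TIMP1 had a single probe set.

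TIMP2, an inhibitor that also takes part in activating MMP2, was higher in CD133+ at each of its 3 probe sets. The RMA levels were 6.99 in CD133+ against 5.86 in CD133- at the leading probe set, 6.99 against 5.75 at another, and 6.90 against 5.52 at the last. These differences, from 1.13 to 1.38, each exceeded 2-fold in RMA. The MAS5 log2 ratios were 0.74, 0.91 and 1.59, so the leading probe set missed the count in MAS5.

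TIMP3, the inhibitor that stays bound to the matrix, went the other way, and its leading probe set gave a smaller difference than the others. That probe set had RMA levels of 7.18 in CD133+ against 8.03 in CD133- cells, a difference of -0.86. The other 3 probe sets had 5.57 in CD133+ and 8.40 in CD133-, then 5.67 and 7.72, then 3.96 and 6.29. The first and second of these differed by -2.84 and -2.05 in RMA, with MAS5 log2 ratios of -2.61 and -2.15. The last was under the floor in CD133+, so no size is given for it. TIMP3 was thus not counted by the probe set chosen for it, but it passed the count rule as lower at 2 probe sets above the floor in both populations.

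**Figure D3:**
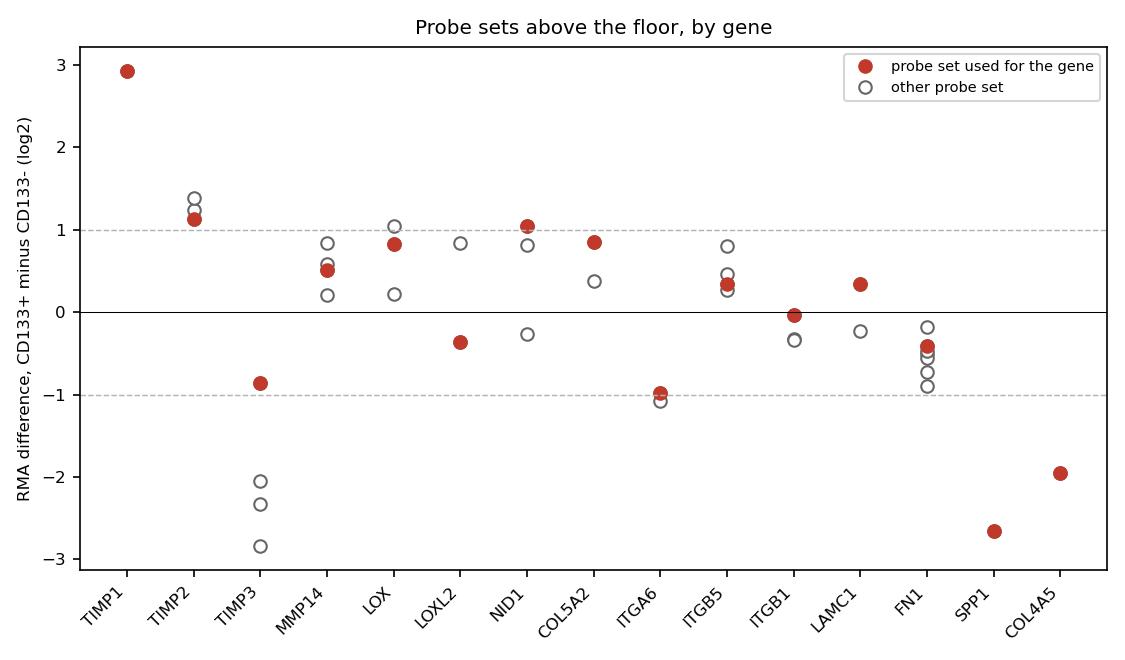
RMA difference, CD133+ minus CD133- (log2, vertical axis), of every probe set above the floor for 15 genes, with the probe set used for the gene filled and the others open; dashed lines mark 2-fold. TIMP2 probe sets lie from 1.13 to 1.38, TIMP3 probe sets from -2.84 to -0.86 and FN1 probe sets from -0.90 to -0.18, while LOXL2, NID1 and LAMC1 have probe sets on both sides of 0.

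MMP14, a membrane-bound metalloproteinase that cuts collagen and activates MMP2, was higher in CD133+ at all 4 of its probe sets, by 0.21 to 0.84 in RMA, with MAS5 log2 ratios of 1.31 to 3.86. The ratio of 3.86 came from a probe set under the floor in CD133-. At the leading probe set the MAS5 intensities were 143 in CD133+ and 35.3 in CD133-, and the RMA values 7.47 and 6.97. MMP2 itself was below the floor. The crosslinking enzyme LOX had RMA levels of 6.78 in CD133+ against 5.96 in CD133- at its leading probe set, with MAS5 intensities of 513 and 236, and all 3 of its probe sets lay above 0, from 0.23 to 1.05. LOXL2, a related oxidase, gave opposite signs: -0.36 at the leading probe set and 0.84 at another. The lower of the values was under the floor at each of these LOXL2 probe sets.

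**Figure D4:**
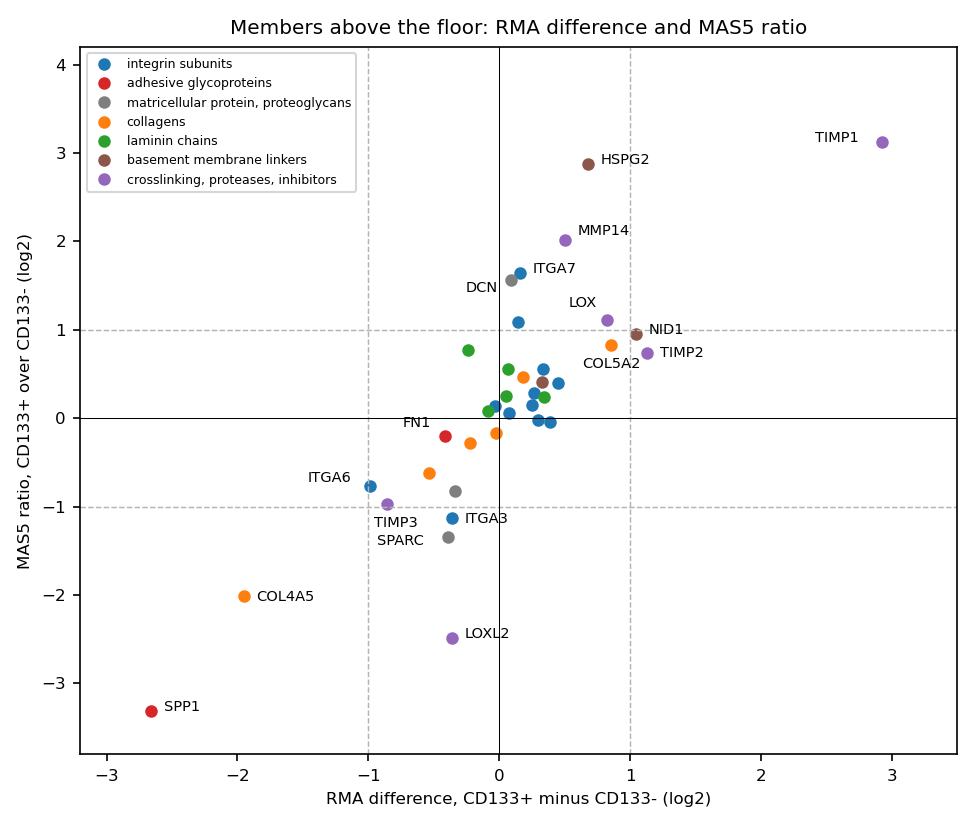
RMA difference (log2, horizontal axis) against MAS5 log2 ratio (vertical axis), both CD133+ relative to CD133-, for the 37 genes above the floor, coloured by role; dashed lines mark 2-fold. TIMP1 lies beyond both lines at upper right (2.93 and 3.12), SPP1 (-2.66 and -3.31) and COL4A5 (-1.95 and -2.02) at lower left, and HSPG2 and MMP14 are among the genes that pass 2-fold in MAS5 only.

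RMA and MAS5, which are 2 processings and not replicates, gave the same sign for 32 of the 37 genes. Over all genes above the floor they did so for 10207 of 13116. TIMP3 was not counted but met the count rule at probe sets other than its leading one, as did ITGA6, LOX and TIMP2. The 250 bases before the RefSeq start are shown for the counted members TIMP1, SPP1 and COL4A5 and, of the others, for TIMP3 only. They come from RefSeq tables of build GRCh38.p14, are read 5′ to 3′ along the gene, and all 4 genes lie on the + strand. Capitals mark the GC box (GGGCGG), the CCAAT box (CCAAT) and the RUNX core (TGTGGT), each searched on both strands, with no overlap between different motifs.
TIMP1, higher in CD133+, chrX:47582186-47582435: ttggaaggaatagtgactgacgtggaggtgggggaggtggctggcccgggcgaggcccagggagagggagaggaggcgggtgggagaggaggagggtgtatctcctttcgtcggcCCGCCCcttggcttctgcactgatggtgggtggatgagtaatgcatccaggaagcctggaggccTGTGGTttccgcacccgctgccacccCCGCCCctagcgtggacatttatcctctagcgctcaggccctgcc
TIMP3, lower in CD133+, chr22:32801455-32801704: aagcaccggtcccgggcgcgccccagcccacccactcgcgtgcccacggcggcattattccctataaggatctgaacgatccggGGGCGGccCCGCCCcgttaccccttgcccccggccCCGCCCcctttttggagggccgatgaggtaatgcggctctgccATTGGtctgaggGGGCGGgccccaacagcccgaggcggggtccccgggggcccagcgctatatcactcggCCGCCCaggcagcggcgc
SPP1, lower in CD133+, chr4:87975464-87975713: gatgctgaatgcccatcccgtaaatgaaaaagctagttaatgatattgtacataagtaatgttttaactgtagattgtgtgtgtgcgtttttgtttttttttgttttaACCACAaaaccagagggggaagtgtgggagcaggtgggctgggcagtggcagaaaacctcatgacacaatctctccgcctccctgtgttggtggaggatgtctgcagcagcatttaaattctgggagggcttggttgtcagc
COL4A5, lower in CD133+, chrX:108439588-108439837: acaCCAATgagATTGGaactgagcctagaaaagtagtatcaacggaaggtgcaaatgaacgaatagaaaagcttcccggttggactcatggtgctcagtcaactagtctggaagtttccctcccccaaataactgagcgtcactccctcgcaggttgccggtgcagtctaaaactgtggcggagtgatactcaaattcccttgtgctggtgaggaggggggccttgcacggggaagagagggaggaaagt

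SPP1 and COL4A5, which were counted as lower, and TIMP3, which was not counted at its leading probe set, did not share one kind of promoter. The TIMP3 window held 26 CpG dinucleotides, 5 GC boxes and 1 CCAAT box, while the SPP1 window held 3 CpG dinucleotides and neither box, and the COL4A5 window held 8 CpG dinucleotides and 2 CCAAT boxes. The TIMP1 window held 12 CpG dinucleotides and 2 GC boxes. A RUNX core was present in the windows of TIMP1, which was higher, and SPP1, which was lower. Over 35116 windows of the same length, the GC box was present in 42.6%, the CCAAT box in 32.0% and the RUNX core in 11.0%, and the median number of CpG dinucleotides was 11. These matches describe the letters only and say nothing of factor binding.

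Several of these genes are neighbours in the genome, and in no pair of neighbours were both genes counted. COL4A5 and COL4A6 are transcribed head to head from starts 380 bases apart, and COL4A5 was lower in CD133+ while COL4A6 was below the floor in both populations. COL4A1 and COL4A2, whose starts are 127 bases apart, were both below the floor. COL5A2 lies beside COL3A1, which was below the floor, and LUM beside DCN, which had an RMA difference of 0.09. TIMP1 lies within SYN1 and TIMP3 within SYN3, genes of neuronal synapsins, and both host genes were below the floor, with RMA differences of 0.00 for SYN1 and -0.05 for SYN3. SPP1 is flanked by MEPE, another gene of the same bone and tooth matrix family, which had an RMA difference of -0.29 with a CD133+ value under the floor.

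Further genes of the adhesion and matrix pathway were read from 6 additional lists, whose counts stand beside 2.25% higher and 1.09% lower over all genes above the floor. At 0 to 3 genes counted in a list, no excess can be read from them. Among 10 other matrix receptors above the floor, with a median RMA difference of 0.08, none was higher and 1 was lower: CD47, a receptor of thrombospondin and an integrin partner, had RMA levels of 7.36 in CD133+ against 8.51 in CD133- cells. The proteoglycan receptors SDC2 and SDC4 had RMA differences of -0.74 and 0.56, and the tetraspanin CD151, which holds laminin-binding integrins, had 0.51. Among 17 integrin adhesion complex genes, with a median of 0.19, 1 was higher and none was lower. PARVB, which encodes the actin-linking protein parvin beta, had RMA levels of 7.05 in CD133+ against 6.04 in CD133-, and all 5 of its probe sets above the floor lay above 0. The integrin activator FERMT1 (kindlin) differed by 0.86 in RMA, with a MAS5 log2 ratio of 1.39, and the scaffold PXN (paxillin) had -0.72 and -0.57.

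Of the 14 genes above the floor that process and crosslink collagen, 3 were higher and none was lower, with a median RMA difference of 0.32. SERPINH1, the collagen chaperone of the endoplasmic reticulum, had RMA levels of 8.42 in CD133+ against 5.97 in CD133- cells, and MAS5 intensities of 1310.4 and 124. LOXL4 had 8.14 and 6.60, although its second probe set had a difference of 0.09, and LOXL1 passed the floor through CD133+ alone, with MAS5 intensities of 153 in CD133+ against 26.6 in CD133- cells, so no size is given for its difference. PCOLCE, an enhancer of procollagen cleavage, had an RMA difference of 0.66. The prolyl and lysyl hydroxylases P4HA1, P4HA2, PLOD1, PLOD2 and PLOD3 had RMA differences from 0.14 to 0.46 and were not counted. In the same list P4HA3 had -0.095 and P4HB had 0.007, with 2 of the 3 P4HB probe sets below 0.

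Of 10 other matrix genes above the floor, with a median of 0.23, 1 was higher and 1 lower. TGFBI, a TGF-beta-induced adhesion protein, had RMA levels of 11.62 in CD133+ against 10.32 in CD133-. VCAN, the proteoglycan versican, had 7.36 in CD133+ and 8.82 in CD133-, and its 4 probe sets above the floor lay from -2.05 to -1.42. COL27A1 and COL7A1 had RMA differences of 0.76 and 0.53. None of 8 other metalloproteinase genes and none of 9 other integrin subunits above the floor was counted, with medians of 0.28 and 0.18. MMP11, MMP15, ADAM17 and MMP9 had RMA differences of 0.56, 0.43, 0.38 and 0.36, and ITGAE, ITGA10, ITGAM and ITGA2B had 0.61, 0.34, 0.31 and 0.31.

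Markers of other cells were read beside these genes, since interstitial collagens and osteopontin can come from non-tumour cells. All 8 hepatocyte and hepatoma markers with a probe set were above the floor, with summed MAS5 intensities of 139436 in CD133+ and 157912 in CD133-, and ALB, AFP and APOA1 were counted as lower. Of 10 fibroblast and stellate cell markers 5 were above the floor and none was counted. The sums over all 10, with those below the floor included, were 715 and 494. PDGFRB, PDGFRA, LRAT, FAP and POSTN were below the floor in both populations. Of 8 endothelial markers 1, PECAM1, was above the floor, and it was counted as lower, with sums over all 8 of 341 and 1016. Of 6 leukocyte markers 3 were above the floor and LYZ was counted as higher, while PTPRC, CD14 and SPI1 were below the floor. The sums over all 6 were 10466 and 4196, of which LYZ alone gave 10257 and 4008. No marker had a MAS5 value of 0. In RNA from whole populations, fewer cells of a kind and less RNA per cell cannot be told apart, and the part of these markers in the results was not tested.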

How the data were processed

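Expression was measured on oligonucleotide arrays in 1 CD133+ and 1 CD133- population of PLC8024 cells, with RNA biotin-labelled, per the labels' protocols. The authors deposited MAS5 values, which are linear intensity values, and RMA values, which are on the log2 scale, and the submitters' processing notes name GCOS, MAS5 and RMA without versions. The sources used here do not say which arrays were normalized together, or whether a population's RMA and MAS5 values come from the same array. The 2 MAS5 columns had trimmed means of 500.1 each, and the median RMA values were 5.16 in CD133+ and 5.14 in CD133-.

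Of 54675 probe sets, 41097 were assigned to 1 gene, 1801 to several and 11777 to none by GEO's platform annotation, and 41043 symbols were updated through a RefSeq table of GRCh38.p14. Where several probe sets named a gene, that of highest mean RMA over both populations stood for it. The difference was RMA CD133+ minus CD133-, with the MAS5 log2 ratio as second measure, and the floor, the 2-fold count rule and the 1.5-fold rule are as given above. No fold is given where the lower value was below the floor, though log2 differences are given for some such genes and probe sets. Every member is named; full values were given for members past 1.5-fold in both processings, and in additional lists up to 4 genes with the largest RMA difference were named, with others chosen after their values were seen. The members and lists were chosen with earlier results of these data known. RMA and MAS5 are 2 processings, never replicates, and the number of arrays limits the precision. The count rule was tested on simulated data. Python 3.11.15, pandas 2.3.3 and numpy 2.4.6 were used.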

Additional observations from a re-analysis of the deposited data

How the results depend on the processing

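With 1 array per population in each processing, no left-out replicate and no error between sorts could be computed. No paired analysis was possible because each population has 1 array in each processing. TIMP1 was counted as higher under every alternative tried, and SPP1 and COL4A5 as lower under all but the one without _x_at and _s_at probe sets, where 0 members were lower because SPP1 had no probe set left and that of COL4A5 was below the floor. The number counted as higher was 3 in RMA alone (with NID1 and TIMP2), 7 in MAS5 alone, 2 with no floor (with LUM), 3 with the probe set of highest mean MAS5 value (with LOX and TIMP2) and 6 at 1.5-fold. The number lower was 5 in MAS5 alone and 4 at 1.5-fold, and TIMP3 was added with the probe set of highest mean MAS5 value, at -2.05, and with the median over probe sets, at -2.19. That median left SPP1 at -1.62 and COL4A5 at -1.11, against -2.66 and -1.95 at their leading probe sets. Against a main value of 0.29, receptors minus ligands was 0.056 in MAS5 alone, 0.013 with a pseudocount of 50 on MAS5, 0.15 with all matrix members as ligands, 0.19 with the floor at the 75th percentile, 0.16 with the median over probe sets, 0.15 with no floor and 0.095 once _x_at and _s_at probe sets were left out. It stayed above 0 in each of these, but its size depends on the processing. The receptor median was 0.093 with the MAS5 pseudocount, 0.078 with the median over probe sets and 0.039 with the probe set of highest mean MAS5 value. The ligand median was above 0, at 0.087 in MAS5 alone, 0.080 with the pseudocount and 0.12 without _x_at and _s_at probe sets. Why these values moved was not tested. For the leading probe sets of HSPG2, MMP14, ITGA3, ITGB4 and ITGA7, the MAS5 ratios were wider than the RMA differences.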
